A study of Mus musculus with 6 samples.

Results

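The Hoxa cluster was followed gene by gene in MN1-transformed mouse myeloid progenitors with and without Dot1l. The members were the 9 rows of the expression tables with the symbols Hoxa2, Hoxa3, Hoxa4, Hoxa5, Hoxa6, Hoxa7, Hoxa9, Hoxa10 and Hoxa11, out of 31626 genes per table, and none of them held a failed estimate. RNA came from common myeloid progenitors of C57Bl/6 mice that carried MN1, a leukaemia oncogene, on an MSCV retrovirus that also marks cells with GFP. All cells started as Dot1l flox/flox, in which Cre recombinase cuts out the floxed part of the gene, and were kept in M3234 medium with FBS, IL3, IL6 and SCF. In 3 control libraries the cells had received a control vector, and in 3 Dot1l-deleted libraries they had received Cre and are labelled Dot1l -/-. Both groups were sorted at day 7 after transduction, and both carried the MN1 virus. No library had Cre with intact Dot1l, so any effect of Cre itself cannot be told apart from that of the deletion. Nothing in the labels ties the replicates to different cultures or mice, and p-values therefore describe just the spread among these 6 libraries, which may be technical.

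The Hox genes encode homeodomain transcription factors that lie in clusters in the order in which they act along the body axis. Of the members, Hoxa2 is the most anterior, and the posterior ones, which belong to the AbdB class, lie toward Hoxa13. In blood, the Hoxa genes are active in stem and progenitor cells and are shut down as cells mature, and high HOXA9 and HOXA10 with the cofactor MEIS1 is a known feature of many acute myeloid leukaemias. DOT1L methylates lysine 79 of histone H3 on transcribed genes and is recruited to the Hoxa locus by fusion proteins in MLL-rearranged leukaemia. The series title names MLL1 and DOT1L as partners of MN1, so the question here was how each Hoxa transcript differed once Dot1l was deleted.

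The stretches of DNA before the starts of the most abundant members are shown because these genes fell furthest and yet their start regions differ widely. They are the 250 bases before the annotated start in RefSeq, 5′ to 3′ on the gene's strand, with every CG dinucleotide, the target of DNA methylation and of CXXC domain proteins such as MLL1, in capitals. Hoxa5 is included as the member promoter with the most CG.
Hoxa5 (GRCm38.p6, chr6:52204588-52204837, minus strand): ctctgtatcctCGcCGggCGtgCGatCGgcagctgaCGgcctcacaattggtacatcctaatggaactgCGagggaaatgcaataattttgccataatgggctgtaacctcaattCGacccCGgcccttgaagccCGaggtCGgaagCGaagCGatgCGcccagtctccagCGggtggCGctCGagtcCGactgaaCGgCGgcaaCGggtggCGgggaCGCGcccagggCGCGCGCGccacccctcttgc
Hoxa9 (GRCm38.p6, chr6:52227371-52227620, minus strand): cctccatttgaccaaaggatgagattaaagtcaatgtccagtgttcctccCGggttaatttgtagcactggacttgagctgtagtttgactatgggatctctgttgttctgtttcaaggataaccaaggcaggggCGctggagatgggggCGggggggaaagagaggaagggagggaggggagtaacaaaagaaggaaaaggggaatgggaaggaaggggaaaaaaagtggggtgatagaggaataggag
Hoxa10, start nearer to Hoxa11 (GRCm38.p6, chr6:52240855-52241104, minus strand): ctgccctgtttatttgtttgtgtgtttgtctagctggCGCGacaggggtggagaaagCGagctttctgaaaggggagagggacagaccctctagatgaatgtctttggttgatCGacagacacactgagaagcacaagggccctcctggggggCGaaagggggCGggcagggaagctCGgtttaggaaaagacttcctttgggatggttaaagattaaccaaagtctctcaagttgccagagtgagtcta
Hoxa10, start nearer to Hoxa9 (GRCm38.p6, chr6:52234940-52235189, minus strand): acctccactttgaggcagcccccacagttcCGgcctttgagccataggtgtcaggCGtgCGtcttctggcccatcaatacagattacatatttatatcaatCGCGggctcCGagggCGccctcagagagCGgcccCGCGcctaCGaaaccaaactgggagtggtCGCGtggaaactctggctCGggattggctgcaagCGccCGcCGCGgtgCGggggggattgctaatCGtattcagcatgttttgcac
Hoxa11 (GRCm38.p6, chr6:52245811-52246060, minus strand): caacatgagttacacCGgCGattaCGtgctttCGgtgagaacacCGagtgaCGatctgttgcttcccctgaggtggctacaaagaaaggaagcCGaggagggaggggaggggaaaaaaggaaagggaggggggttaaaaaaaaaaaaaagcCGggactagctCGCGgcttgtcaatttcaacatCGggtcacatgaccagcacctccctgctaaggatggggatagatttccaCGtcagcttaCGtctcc

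RefSeq gave 9 promoters for 8 of the members, and Hoxa4 was not matched. Hoxa9 held 3 CG in this window, and 71.0% of 32851 promoters of the same length held at least as many. The start of Hoxa10 nearer to Hoxa11 held 7, and the one nearer to Hoxa9 held 20. Hoxa11 held 13, and Hoxa5 held 28, a number that only 7.61% of all promoters reached, where the median promoter held 6. The members thus ranged from below to far above the median. Motifs were searched on both strands in the same window. The MEIS and PREP core TGACAG lay before Hoxa2 and Hoxa3 and in 15.9% of all promoters. The AbdB-class core TTTATNG lay in none of the 9 member promoters and in 9.81% of all promoters, and the homeodomain core TAATTA in none and in 4.84%. The NF-Y core CCAAT lay before Hoxa2, Hoxa5 and Hoxa6 and at the Hoxa10 start nearer to Hoxa9, against 33.8% of all promoters, and TATAAA at that Hoxa10 start only, against 12.4%. The motif TTTATNG and the reverse complement of TATAAA share the letters TTTAT. A match describes letters, not bound sites.

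The targeted gene was checked first. Dot1l (ENSMUSG00000061589) was at 20.2, 22.6 and 19.6 FPKM (fragments scaled to gene length and to the library's total) in controls and at 8.24, 8.17 and 5.80 FPKM in the libraries labelled as deleted. It was lower in all 3, at -1.39 on the log2 scale (SE 0.157, adjusted p = 0.000124 by limma). Gene-level values do not separate reads outside the deleted part. Among the libraries the third Dot1l-deleted one lay apart, with a median log2 deviation of -0.366 over all tested genes against 0.0499 to 0.103, and 39.0% of its FPKM in 10 rows against 6.59% to 10.8%. Over all tested genes the log2 fold changes had a median of -0.16, and of 0.0011 with median-of-ratios scaling. The libraries held 17310 to 18034 genes above 0. The myeloid progenitor markers were measured in all libraries, while Ms4a1, Cd3g, Ncr1, Dcn and Lum, some of the markers of B, T, NK and stromal cells, were listed at 0 in all 6; others of those lists, given with the maturation markers, were not.

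For all 9 Hoxa members the highest Dot1l-deleted value lay under the lowest control value. Groups failed to overlap in this direction in 23.2% of the 20568 genes above 0 in any library and in 34.1% of the genes with a mean of at least 1 FPKM. The same held for all 7 tested genes flanking the cluster, so this trait was not particular to the members. The summed FPKM of the members was 124, 133 and 134 in controls and 6.71, 4.64 and 5.26 after deletion. Of the 9 members, 8 kept under 10% of their control mean, and Hoxa4 kept 35.9%. Over the 11924 tested genes (mean of at least 1 FPKM over the 6 libraries), 1.03% kept under 10% and 0.805% kept under 5%. Hoxa2 and Hoxa3, counted among the 8, lay under that mean and were not among these tested genes. In bulk RNA, fewer cells with Hoxa transcripts and less Hoxa RNA per cell cannot be told apart.

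**Figure D1:**
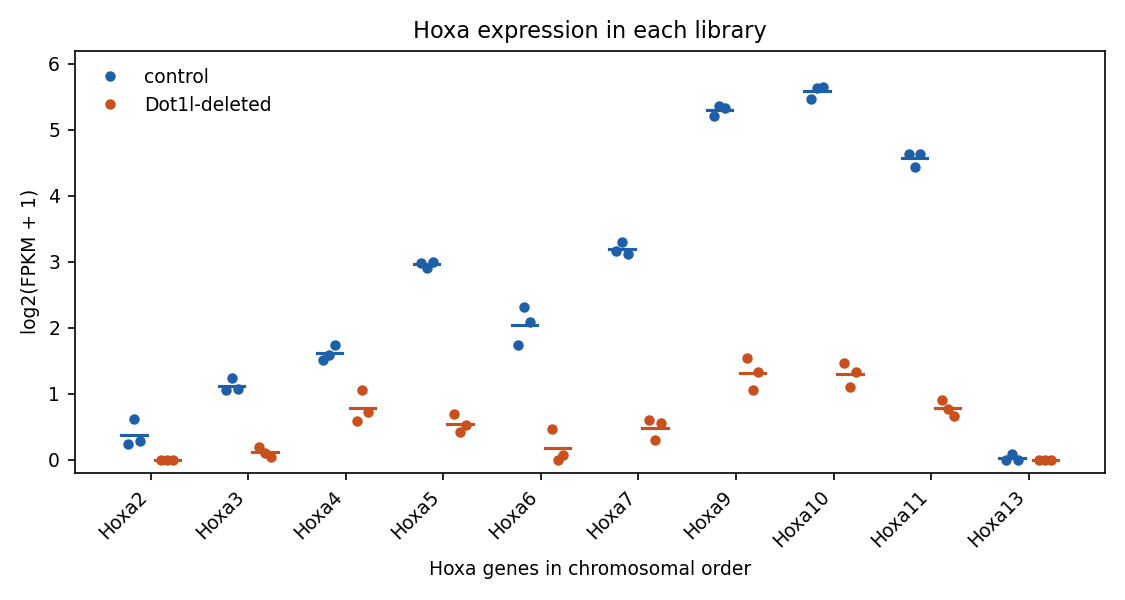
Level of each Hoxa gene, in chromosomal order, as log2(FPKM + 1) in each of 3 control (blue) and 3 Dot1l-deleted (orange) libraries; dots are libraries and short lines are group means. From Hoxa2 to Hoxa11 the 2 groups do not overlap, and Hoxa13 is at or near 0 in both.

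Of the 9 members, 7 passed the filter of 1 FPKM and were called lower by limma at an adjusted p under 0.05, against 12.2% of all tested genes, and none was higher, against 7.43%. Of these 7, 5 passed only through the control group, so that they had to differ, and the count by itself says little. Fold changes below are Dot1l-deleted minus control in log2(FPKM + 1), a scale on which low genes appear to change less than they did. By exact permutation (two-sided) every member had p = 0.1, the smallest value that 3 against 3 libraries allow.

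The posterior genes were the most abundant. Hoxa10 (ENSMUSG00000000938), known for its part in uterine and myeloid development, was at 43.5, 48.7 and 49.4 FPKM in controls and at 1.76, 1.15 and 1.52 FPKM after deletion. It had the largest fall among the members, at a log2 fold change equal to -4.29 (SE 0.143, adjusted p = 1.719e-07 by limma), and ranked 5 from the lowest of all tested genes. Hoxa9 (ENSMUSG00000038227), a self-renewal gene of blood stem cells, went from 35.9, 40.1 and 39.3 FPKM to 1.92, 1.07 and 1.51 FPKM, a 25.6-fold lower mean. On the log2 scale the change was -3.99 (SE 0.154, adjusted p = 1.899e-07 by limma). Hoxa11 (ENSMUSG00000038210), known from limb and kidney development, was at 24.0, 20.6 and 23.9 FPKM in controls and at 0.880, 0.712 and 0.585 FPKM after deletion. On the log2 scale the change was -3.79 (SE 0.140, adjusted p = 1.833e-07 by limma). These 3 genes kept 3.90% (Hoxa9), 3.13% (Hoxa10) and 3.18% (Hoxa11) of their control means. Every Dot1l-deleted library lay far under the lowest control for each.

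The central genes fell from lower levels. Hoxa7 (ENSMUSG00000038236), which like Hoxa9 is often high in MLL-rearranged leukaemia, went from 8.0, 8.88 and 7.66 FPKM to 0.513, 0.225 and 0.464 FPKM. That was 20.4-fold lower, and the change in log2 was -2.72 (SE 0.162, adjusted p = 1.664e-06 by limma). Hoxa6 (ENSMUSG00000043219) was the least even of the tested members. It was at 2.35, 3.99 and 3.23 FPKM in controls, at 0.374 and 0.0549 FPKM in the first and the third Dot1l-deleted libraries, and listed at 0 in the second. On the log2 scale the change was -1.87 (SE 0.225, adjusted p = 0.000188 by limma). Hoxa5 (ENSMUSG00000038253), known from lung and skeletal development, went from 6.91, 6.50 and 7.02 FPKM to 0.622, 0.339 and 0.441 FPKM, 14.6-fold lower. On the log2 scale the change was -2.42 (SE 0.159, adjusted p = 3.244e-06 by limma).

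Hoxa4 (ENSMUSG00000000942) differed least in proportion. It was at 1.84, 2.01 and 2.34 FPKM in controls and at 0.494, 1.07 and 0.653 FPKM after deletion, 2.79-fold lower. The groups did not overlap, and the change in log2 was -0.83 (SE 0.199, adjusted p = 0.0145 by limma). The call was lost without the third control library (adjusted p = 0.0581) and with no filter (adjusted p = 0.0796). Relative to the control mean, the 3 Dot1l-deleted libraries kept 24.0%, 52.0% and 31.7% of Hoxa4, whereas no other member kept more than 11.7% in any of them. Without the third Dot1l-deleted library, Hoxa4 kept 38.0% and the other 8 members kept 0 to 9.04%.

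**Figure D2:**
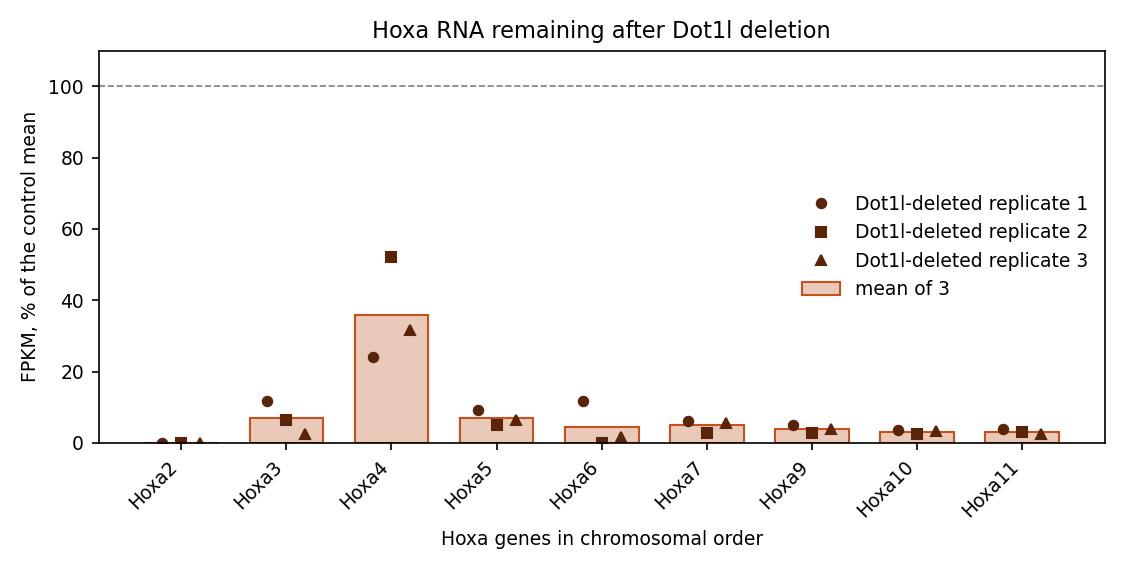
FPKM after Dot1l deletion as a percent of the control mean for Hoxa2 to Hoxa11; bars are means of 3 libraries and symbols are single libraries, with the dashed line at the control mean. Hoxa4 stays at 24.0% to 52.0% and the other genes at or under 11.7%.

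The anterior genes Hoxa3 and Hoxa2 were under the filter. Hoxa3 (ENSMUSG00000079560), needed for the thymus and parathyroid, went from 1.08, 1.36 and 1.11 FPKM to 0.138, 0.0754 and 0.0305 FPKM, 14.5-fold lower. In a fit with no filter its log2 fold change was -1.01 (SE 0.0723, adjusted p = 0.00515 by limma). Hoxa2 (ENSMUSG00000014704), a hindbrain and branchial arch gene, was at 0.175, 0.538 and 0.222 FPKM in controls and listed at 0 in all 3 Dot1l-deleted libraries, so no fold is given. In that fit its log2 fold change was -0.38 (SE 0.112, adjusted p = 0.173 by limma). With no filter 7 members were called lower, all but Hoxa2 and Hoxa4, against 2.86% of 31248 genes. With a filter at 0.1 FPKM 8 members were called lower, all but Hoxa2 (adjusted p = 0.0585 by limma). FPKM gives no read counts, so the depth behind these low values is unknown.

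Hoxa13, at the posterior end of the cluster and no member, was looked at after these values were seen. It was listed at 0 in 5 libraries and at 0.0666 FPKM in the second control, so no change could be seen there.

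The order of the levels changed with deletion. In controls it ran from Hoxa10 through Hoxa9, Hoxa11, Hoxa7, Hoxa5, Hoxa6, Hoxa4 and Hoxa3 to Hoxa2, and no 2 neighbours in this order overlapped between libraries, although Hoxa6 and Hoxa4 came close at 2.35 and 2.34 FPKM. After deletion Hoxa9 and Hoxa10 overlapped at 1.5 ± 0.427 and 1.48 ± 0.309 FPKM (SD, n = 3 each). Hoxa4, at 0.740 ± 0.299 FPKM, lay beside Hoxa11, at 0.726 ± 0.148 FPKM (SD, n = 3 each), and above Hoxa5, at 0.467 ± 0.143 FPKM.

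The make-up of the summed Hoxa signal shifted accordingly. Hoxa9, Hoxa10 and Hoxa11 held 83.5%, 82.5% and 83.9% of the members' summed FPKM in controls and 68.1%, 63.2% and 68.7% after deletion. Hoxa4 held 1.49%, 1.51% and 1.74% in controls and 7.37%, 23.1% and 12.4% after deletion. Hoxa10 alone held 35.2% to 36.8% in controls and 24.8% to 28.9% after deletion, while the share of Hoxa9 was 29.0% to 30.2% and 23.1% to 28.7%. Each of these shares lay lower, or for Hoxa4 higher, in every Dot1l-deleted library.

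**Figure D3:**
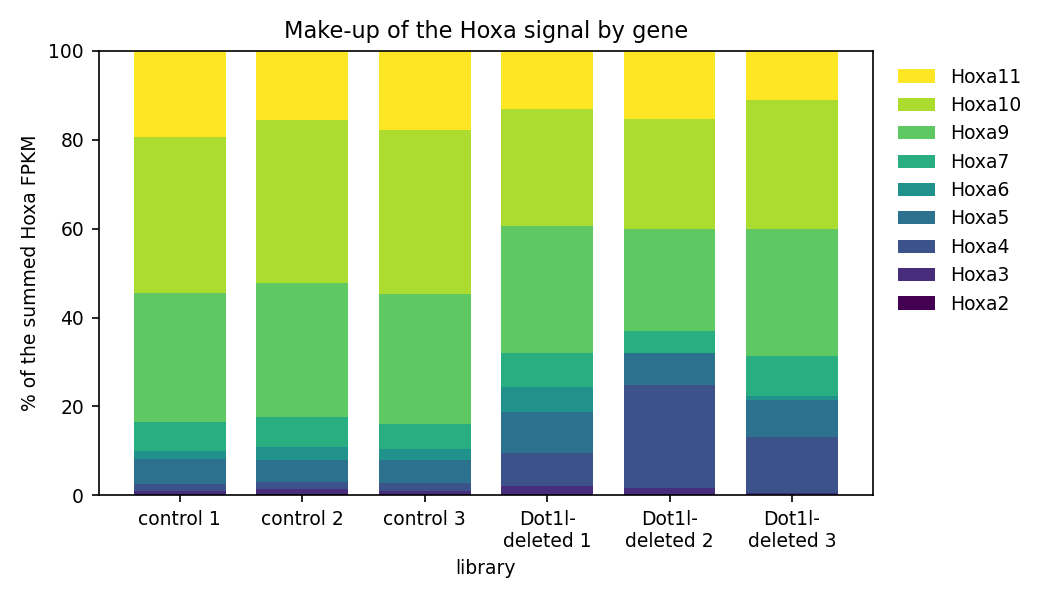
Share of each Hoxa member in the members' summed FPKM (percent, vertical axis) for the 3 control and 3 Dot1l-deleted libraries. Hoxa9, Hoxa10 and Hoxa11 make up 82.5% to 83.9% in controls and 63.2% to 68.7% after deletion, and Hoxa4 takes a larger part after deletion.

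Adjacent members were compared within each library, as the difference of their log2(FPKM + 1), over 8 pairs. In 7 pairs the groups did not overlap, with an exact permutation p = 0.1 and p = 0.114 adjusted over the 8 pairs. With 3 against 3 libraries no pair could pass 0.05. Where both genes of a pair fall to near 0, this scale draws their difference toward 0, so the count by itself says little. Pairs of other genes were not counted. The largest shift was between Hoxa4 and Hoxa5. Hoxa5 minus Hoxa4 was 1.36 ± 0.111 in controls and -0.24 ± 0.376 in Dot1l-deleted libraries (SD, n = 3 each), a change of -1.59. Hoxa5 stayed above Hoxa4 in the first Dot1l-deleted library, by 0.118, and lay below it in the other two, at -0.63 and -0.20. At a pseudocount of 0.1, which compresses low genes less, the change was -2.22, and these groups did not overlap either. Hoxa9 exceeded Hoxa7 by 2.10 ± 0.10 in controls and by 0.828 ± 0.106 in Dot1l-deleted libraries (SD, n = 3 each), a change of -1.28 that was -0.53 at a pseudocount of 0.1. Hoxa10 exceeded Hoxa9 by 0.288 ± 0.0283 in controls and lay at -0.01 ± 0.0687 from it in Dot1l-deleted ones (SD, n = 3 each), so that this pair changed by -0.29. That change was nearly the same at a pseudocount of 0.1 (-0.30). Hoxa3 and Hoxa4 overlapped (exact permutation p = 0.4), but not at a pseudocount of 0.1, where Hoxa4 moved up against Hoxa3 by 1.44. In all, 4 pairs did not overlap at that pseudocount, and Hoxa5 and Hoxa6 turned in direction. The change of Hoxa7 minus Hoxa6 was -0.85 at a pseudocount of 1 and -0.05 at 0.1.

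The order of the Dot1l-deleted libraries depended on scaling. Of the 8 members above 0 in any of them, 7 were highest in the first library as deposited, and Hoxa4 in the second. After median-of-ratios scaling, applied here once the values were known, 4 members were highest in the first library, Hoxa4 in the second, and Hoxa7, Hoxa9 and Hoxa10 in the third. The second library was lowest for 5 members as deposited, and for 6 after scaling. Scaled Dot1l levels were 7.85, 7.85 and 7.68 FPKM. With 3 libraries this is a description only.

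Gene spans in this cluster overlap, which limits how rows can be separated. In the GENCODE M21 annotation all members lie on 1 strand. The span of Hoxa3 overlaps Hoxa4, Hoxa5 and Hoxa6, and antisense transcripts lie over Hoxa3 to Hoxa7 and Hoxa11. The library kit keeps strand, but the strand setting of the counting is not given in the sources at hand, so the split among these rows is uncertain, while Hoxa10 overlapped no other annotated gene. Of the transcripts between members with a row in the tables, Hoxaas2 (deposited as 5730446D14Rik), an RNA antisense to Hoxa3, was at 0.124, 0.268 and 0.299 FPKM in controls and at or under 0.0902 FPKM after deletion. The row 5730596B20Rik, within the Hoxa3 span, was at 0.102, 0.204 and 0.195 FPKM in controls and listed at 0 after deletion. Hottip (deposited under a clone name) and Evx1, beyond Hoxa13, were listed at 0 in all 6 libraries. The noncoding rows were picked after their values were seen.

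The tested genes flanking the cluster had log2 fold changes between -0.72 and -0.16, a range that holds Hoxa2 at -0.38 and ends close to Hoxa4 at -0.83, while the other 7 members lay at -1.01 or lower. On this scale low genes such as Hoxa2 appear to change less than they did. Relative to the control mean, Hoxa2 kept 0% and Hoxa4 35.9%, while the tested flanking genes kept 56.8% (Cbx3) to 85.5% (Hnrnpa2b1). In all 7 tested flanking genes, as in the members, the highest Dot1l-deleted value lay under the lowest control value. The difference between members and flanking genes was not tested. On the anterior side, Skap2, an adaptor protein gene, was at 63.4, 65.2 and 65.4 FPKM in controls and at 53.6, 52.7 and 38.7 FPKM after deletion (log2 fold change -0.43, SE 0.171, adjusted p = 0.110 by limma). On the posterior side, Hibadh, a valine breakdown enzyme gene, was at 67.3, 62.2 and 64.7 FPKM and at 55.7, 56.9 and 38.9 FPKM (log2 fold change -0.37, SE 0.181, adjusted p = 0.186). Of 9 flanking genes measured, 7 were tested, and 1 fell and none rose, against 12.2% of all genes lower, 7.43% higher and 19.7% in either direction. It was Cbx3, a heterochromatin protein gene with many processed copies that can share reads, at -0.72 (SE 0.210, adjusted p = 0.0366 by limma). Cbx3 was no longer called after median-of-ratios scaling (where its adjusted p was 0.133), quantile normalization and array weights, with no filter or a filter at 0.1 FPKM, and without the third control, the first Dot1l-deleted or the third Dot1l-deleted library, where its adjusted p was 0.0965, 0.0910 and 0.0917. Snx10, Tax1bp1, Hnrnpa2b1 and Jazf1 had log2 fold changes of -0.46, -0.40, -0.24 and -0.16, beside the median of -0.16 for all genes. Nfe2l3 was at 0.0895 to 0.215 FPKM in all libraries. With median-of-ratios scaling Skap2, Snx10, Hibadh and Tax1bp1 were called lower, by 0.191 to 0.287 on the log2 scale, against 22.3% of all genes lower and 23.0% higher. In that fit the tested members fell by 0.724 (Hoxa4) to 4.14 (Hoxa10).

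**Figure D4:**
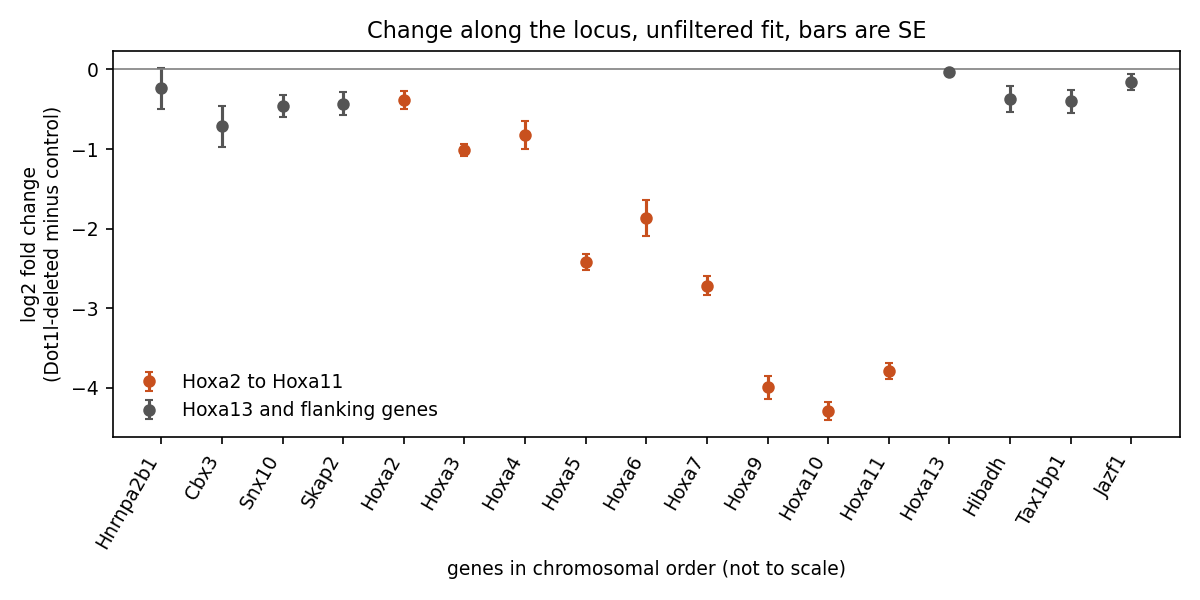
Log2 fold change on the log2(FPKM + 1) scale (Dot1l-deleted minus control, vertical axis) for the members, Hoxa13 and the 7 tested flanking genes in chromosomal order, from the fit with no filter; bars are SE. The members from Hoxa2 to Hoxa11 run from -0.38 to -4.29, Hoxa13 lies at -0.03, and the 7 tested flanking genes lie between -0.72 and -0.16. Low genes such as Hoxa2 appear to change less on this scale than they did.

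The other Hox clusters were almost silent. Of 28 Hoxb, Hoxc and Hoxd genes, 17 were listed at 0 in all 6 libraries, and apart from Hoxb4 none exceeded 0.114 FPKM in any library. Hoxb4 (ENSMUSG00000038692), a gene known to expand blood stem cells when overexpressed, was at 0.0514, 0.0401 and 0.0435 FPKM in controls and at 0.420, 0.324 and 0.412 FPKM after deletion. It was higher in all 3 Dot1l-deleted libraries, opposite to the Hoxa members, with a log2 fold change of 0.41 in the fit with no filter (SE 0.0301, adjusted p = 0.00546 by limma). Groups did not overlap in this direction in 12.2% of genes above 0.

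Cofactors of the HOX proteins fell in part. The TALE proteins MEIS, PBX and PREP (PKNOX) bind DNA together with HOX proteins. Of 8 tested genes of this list, 6 fell and none rose, against 12.2% lower and 7.43% higher among all tested genes, and the median log2 fold change was -0.64 against -0.16. Meis1 went from 55.1 to 8.11 mean FPKM (log2 fold change -2.63, SE 0.146, adjusted p = 1.051e-06 by limma). Pbx3, Meis2 and Tgif2 fell too, with log2 fold changes of -0.76, -0.86 and -0.61. Without the first control library 3 genes of the list were called lower. Below the filter, Pknox2 was at 0.125 mean FPKM in controls and 1.72 after deletion, and Meis3 at 0.145 and 0.611. With no filter 3 genes of the list were called lower and 2, Pknox2 and Meis3, higher. Over all 31248 genes of that fit, 893 were lower and 930 higher.

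Of 14 tested genes known to be bound or raised by HOXA9, 12 fell and none rose, with a median log2 fold change of -1.48, beside 12.2% lower, 7.43% higher and a median of -0.16 for all tested genes. Hlf, a stem cell transcription factor gene, fell by 4.01, the receptor gene Flt3 by 3.76, the growth factor gene Igf1 by 2.80 and the anti-apoptotic gene Bcl2 by 1.62 on the log2 scale. Igf1 and Trib2, at means of 0.802 and 0.935 FPKM after deletion, passed the filter only through the control group and had to differ. Myb and Lck were not called, at log2 fold changes of 0.02 and -0.07. Flt3, Cd34 and Myb also belong to the progenitor markers below.

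Next came 4 lists of genes whose products act on chromatin or transcription at the cluster, set beside 12.2% lower and 7.43% higher among all tested genes. Of 11 tested DOT1L partners and elongation factors, 2 fell: Mllt3, which encodes the DOT1L-binding protein AF9, by 2.16 on the log2 scale (SE 0.147, adjusted p = 4.022e-06 by limma), and Mllt6 by 0.506. Of 10 MLL complex genes, Psip1, which encodes the chromatin tether LEDGF, fell by 0.593, and Mll1 itself had a log2 fold change of -0.43 (adjusted p = 0.121 by limma). Of 29 Polycomb genes, the products of which repress Hox genes, Bmi1, Pcgf2 and Phc1 fell, with log2 fold changes of -0.64, -0.57 and -0.58, and none rose. With median-of-ratios scaling 9 Polycomb genes fell and 5 rose, against 22.3% lower and 23.0% higher among all tested genes in that fit. These 3 lists rest on single libraries. Without any 1 control, or without the second Dot1l-deleted library, 1 DOT1L partner and no MLL complex gene was called lower. Polycomb calls dropped to 0 or 1 without any 1 control, and were 7 lower and 5 higher without the third Dot1l-deleted library, where 4 DOT1L partners were lower. Over all genes, that fit without the third Dot1l-deleted library called 2517 lower and 2041 higher. Of 7 insulation genes, Ctcf, Zfp143 and the cohesin genes Rad21, Smc1a, Smc3, Stag1 and Stag2, 0 were called by limma. Of the same 7, 1 had an unadjusted p under 0.05. With median-of-ratios scaling 3 of the 7 were lower and 1 higher, beside 22.3% and 23.0% of all tested genes. Of the CDX genes, upstream activators of Hox genes, Cdx1 and Cdx4 were listed at 0 in all 6 libraries and Cdx2 was at or under 0.0195 FPKM. The Mn1 gene of the mouse had 49.7, 51.1 and 42.0 FPKM in the 3 controls and 69.0, 40.1 and 36.2 FPKM after deletion, with overlapping groups (adjusted p = 0.945 by limma), and whether it holds reads from the virus was not tested.

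Maturation markers also differed, and their counts stand beside 7.43% higher and 12.2% lower among all tested genes. Of 15 neutrophil markers, 14 were tested and all 14 rose, and their summed FPKM was 1020 to 1243 in controls and 20840 to 24700 after deletion. Of 13 monocyte and macrophage markers, 10 were tested, 7 rose and 1 fell, with sums of 174 to 196 and 891 to 1179 FPKM. Some markers that rose passed the filter only through the Dot1l-deleted group and had to differ. Among them were Ltf, Fcnb, Retnlg, Cd177, Csf1r and Fcgr1. Of 15 myeloid progenitor markers, Kit, Cd34, Gata2 and Flt3 fell, and 7 rose, among them the granule genes Mpo and Prtn3; their sums were 3134 to 3445 and 5167 to 7673 FPKM. Of the mast cell and basophil markers, 5 of 8 tested fell and 1 rose, with sums of 2543 to 2790 and 1590 to 2302 FPKM. The erythroid markers split, with 3 lower and 3 higher of 7 tested, as did the megakaryocyte markers, with 2 and 2 of 5. B cell, T and NK cell, and stromal markers summed to at most 5.60, 0.381 and 4.17 FPKM in any library. The B cell receptor gene Cd79b rose from 1.31 to 4.83 mean FPKM (log2 fold change 1.33, adjusted p = 0.000305 by limma). Of the stromal markers, Pdgfrb was at 2.04 and 1.75 mean FPKM, and Col1a2, under the filter, at 1.06 and 0.297. The part of these cell states in the Hoxa values was not tested.

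By Pearson correlation over the 6 libraries with the mean standardized log2(FPKM + 1) of the 7 tested members, the most similar rows were mmu-mir-20a, Lypd6b, Epha3, Gpr12 and Tjp1, at r of 0.9994 to 0.9996. These points fall into 2 groups of 3, so r mainly reflects the difference between groups. Epha3, an ephrin receptor gene, went from 11.6, 12.2 and 13.7 FPKM to 0.843, 0.824 and 0.704 FPKM. Gpr12, an orphan receptor gene, went from 4.36, 4.81 and 4.67 FPKM to 0.222, 0.154 and 0.0815 FPKM, 30.2-fold lower. The mmu-mir-20a row, a microRNA precursor that polyadenylated libraries measure poorly, was listed at 0 in the 3 Dot1l-deleted libraries.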

How the data were processed

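The authors deposited 1 FPKM value per Ensembl gene and library. Per the labels' protocols, RNA was extracted with a Qiagen kit and made into libraries with an Illumina stranded kit. The tools Cuffdiff, SAMtools, GSNAP and CASAVA 1.8.2 and the build mm9 are named per the submitters' processing notes, with no role or order; the annotation and strand setting are not given in the sources used here. A value of 999999999 was read as a failed estimate, and 378 genes with it in any library were left out. The tables hold no positions; gene order and overlaps came from GENCODE M21 and promoters from RefSeq GRCm38.p6, a build other than that of the files.

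The 11924 genes with a mean of at least 1 FPKM were compared on log2(FPKM + 1) by limma 3.58.1 (R 4.3.3, lmFit, eBayes with a trend). Tests were two-sided, with no block and Benjamini-Hochberg adjustment over all of these genes. The script was tested on simulated data with independent noise per gene and library. That setting had no shift of a whole library such as the third Dot1l-deleted one shows. Single values were compared with exact permutation tests over libraries. FPKM keeps no read counts, so depth is unknown and no counting interval is given.

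The members, gene lists and tests were chosen with earlier results of these data known. Named genes were Dot1l, Mn1, the members, the flanking genes, the 5 rows most like the members (rows named Gm or Rik and rRNA passed over), the highest Hox gene outside the cluster and up to 4 genes per list with the smallest adjusted p; others were picked after their values were seen. Creb5, Aff1, Lmo2, Cbx6, Mcpt4 and Ahsp were not analysed here, and some further genes are not reported here. Alternatives covered pseudocount, filter, scaling, variance model, weights, replicate block and each library left out.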

Additional observations from a re-analysis of the deposited data

How the results depend on the processing

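Of the tested members, 7 were called lower under every setting but a filter at 0.1 FPKM, which adds Hoxa3 and gave 8, and the fit without control replicate 3, which loses Hoxa4 and gave 6; with no filter the 7 held Hoxa3 in place of Hoxa4. No member was called higher under any setting. Of 112 refits of single members, 110 kept direction and call, and the 2 others were those of Hoxa4. Dot1l kept its call throughout, at -1.06 to -1.53. Between neighbouring members, Hoxa3 and Hoxa4 turned to -0.0168 at a pseudocount of 5 and Hoxa5 and Hoxa6 to -0.41 at a pseudocount of 0.1, since a large pseudocount compresses low genes. The number of flanking genes called, 1, became 0 with no filter and with the filter at 0.1 FPKM, 4 with median-of-ratios scaling, 2 with total scaling, 5 with quantile normalization, 4 with array weights, and 0 to 4 with 1 library left out. Over all genes, 1459 lower and 886 higher became 2661 and 2740 with median-of-ratios scaling, 3196 and 2412 with quantile normalization and 3185 and 2531 with array weights; with no filter 893 were lower. With 1 library left out they ran from 1012 to 2517 lower and 700 to 2041 higher, the highest without the third Dot1l-deleted library. Calls over the 79 tested cofactor, target and regulator genes, 24, became 44 with median-of-ratios scaling, 45 with quantile normalization and 45 with array weights, and 18 to 41 with 1 library left out, again highest without the third Dot1l-deleted library. The cause of these shifts was not tested. Deviations of same-numbered libraries correlated at -0.03, -0.04 and 0.01, and those of differently numbered ones at -0.08 to 0.11. Such values cannot show whether the libraries were paired, and the labels do not say. With the replicate block 7 members were called lower, Dot1l was at -1.39, 1 flanking gene and 24 regulator genes were called, and 1801 genes were lower and 1152 higher. FPKM without counts sets no limit of detection, so Hoxa2, Hoxa6 and Hoxa13 at 0 are listed values only.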
